A study of Mus musculus with 7 samples.

Results

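The genes described here code for the subunits of the AMPA and kainate receptors, the fast glutamate-gated cation channels. They are Gria1, Gria2, Gria3 and Gria4 for the AMPA receptor and Grik1, Grik2, Grik3, Grik4 and Grik5 for the kainate receptor. These 9 genes were picked out by their gene symbols from 49315 genes counted in each library. The rule uses no measured value, but the family was chosen with earlier results of these data known. RNA had been sequenced from primary mouse oligodendroglia that had been prepared from the brains of newborn pups of both sexes by shake-off from mixed glial cultures and microglia depletion, and then kept in differentiating SATO medium with thyroid hormone for 6 days. Of the 7 libraries, 4 came from wildtype controls (Klf13-wt) and 3 from Klf13 knockouts (Klf13-ko), and all are labelled as biological replicates. The deletion of Klf13, which codes for a Krüppel-like transcription factor, was not limited to one lineage, so that any neurons, astrocytes or other cells left in a knockout culture carried it as well. How many animals went into a culture is not given in the sources used here.

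An AMPA or kainate receptor is a tetramer of subunits around a cation pore. GluA1 to GluA4 are the products of Gria1 to Gria4. GluK1 to GluK3, from Grik1 to Grik3, form kainate channels on their own, whereas GluK4 and GluK5, from Grik4 and Grik5, bind glutamate with high affinity but need a partner of the first kind. In oligodendrocyte precursor cells (OPCs) these receptors mediate currents at synapses with axons, and the subunit make-up sets how much calcium enters. A glutamine codon in the pore loop, the Q/R site, is decisive here, because the adenosine deaminase ADAR2 edits it in nearly all Gria2 transcripts and in part of the Grik1 and Grik2 transcripts, so that it is read as arginine, which makes the channel largely impermeable to calcium.

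The coding sequence around this codon is shown for each subunit. It is the editing of the codon in the transcript, not the codon itself, that sets GluA2 apart in function. Counts per gene cannot tell edited from unedited transcripts. The sequences are those of GENCODE M21 transcripts on GRCm38, run 5′ to 3′ on the coding strand, and carry the Q/R codon in capitals.
Gria1: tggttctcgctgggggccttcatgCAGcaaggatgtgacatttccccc
Gria2: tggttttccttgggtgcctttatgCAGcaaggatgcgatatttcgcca
Gria3: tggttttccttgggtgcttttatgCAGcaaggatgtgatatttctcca
Gria4: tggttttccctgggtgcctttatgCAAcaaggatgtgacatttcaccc
Grik1: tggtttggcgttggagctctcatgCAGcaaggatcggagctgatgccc
Grik2: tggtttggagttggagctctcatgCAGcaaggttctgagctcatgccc
Grik3: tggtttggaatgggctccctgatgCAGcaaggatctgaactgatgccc
Grik4: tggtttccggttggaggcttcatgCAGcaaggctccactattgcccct
Grik5: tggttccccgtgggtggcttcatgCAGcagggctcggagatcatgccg
The codon is CAG in 8 of the genes and CAA in Gria4, and both read as glutamine in the genome. Over the 48 bases, Gria3 shared 45 with Gria2, Gria4 shared 42 and Gria1 shared 39, while the kainate subunits shared 30 to 34. Among the kainate subunits Grik1 was closest to Grik2, with 44 identical bases. The Gria1 stretch lies at chr11:57243070-57243117 in exon 11 of 16 on the plus strand, and the Gria2 stretch at chr3:80706890-80706937 in exon 11 of 16 on the minus strand. In Grik1, on the minus strand of chromosome 16, an exon junction splits the stretch into chr16:87940538-87940568 with the codon and chr16:87936099-87936115.

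The libraries held 24507471 to 59596479 counts on genes. Counts were scaled by TMM factors to normalized counts. The quasi-likelihood test of edgeR was run on the 18352 genes with enough counts, and p-values were adjusted over all of them by the Benjamini-Hochberg method. Genes are said to have changed at an adjusted p of at most 0.05. All 9 receptor genes were among the tested genes, the rarest being Grik1 with 73 to 422 raw counts per library. The knockouts kept 7.76% of the control level of Klf13. All 12 markers of mature oligodendrocytes fell, against 12.2% of all tested genes, with Mbp, which codes for myelin basic protein, among them. Control replicate 3 stood apart by its microglia markers, with a summed level of 14374 normalized counts per kilobase against 3318 to 4281 in the other controls. The share of counts on Gm42418, Gm23935 and Lars2, on which ribosomal RNA reads collect, was 6.03% to 7.56% in control replicates 2 and 3 and in knockout replicate 2, and 14.1% to 17.9% in the remaining 4 libraries.

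Gria1 and Grik1 were the 2 receptor genes that changed, and both rose in the Klf13 knockout. In the same test, 11.6% of all tested genes rose and 12.2% fell, 23.8% in either direction. No receptor gene fell. The number that fell was 0 in edgeR's quasi-likelihood test, in DESeq2's Wald test and in limma voom, and also at an unadjusted p below 0.05 in edgeR. Gria1 and Grik1 also passed the study's fold change threshold of 1 log2 unit, which 3.97% of all tested genes passed upwards and 3.08% downwards. Values of control and knockout libraries did not overlap for Gria1, Grik1 and Grik3, each with the knockouts higher, against 36.2% of all tested genes in either direction and 18.3% with the knockouts higher. These shares are given as the background, and nothing about the family as a whole is read from 9 genes. The median log2 fold change of the 9 genes was 0.23, beside -0.0037 over all tested genes.

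Gria1 (ENSMUSG00000020524), on chromosome 11 of GRCm38 from 57011387 to 57330244, codes for GluA1, a subunit without edited Q/R site. Control replicates 1 to 4 held 2671, 3435, 1271 and 640 normalized counts of it, whereas knockout replicates 1 to 3 held 7406, 10746 and 7642. Each knockout library lay above all controls, while the controls differed among themselves by 5.37-fold, with replicates 3 and 4 low. The mean rose from 2004 ± 1277 (SD, n = 4) to 8598 ± 1864 (SD, n = 3), a fold change of 4.29. On the log2 scale the difference was 2.10 (SE 0.52, 95% confidence interval 0.89 to 3.31, edgeR adjusted p = 0.0259). The call was lost without knockout replicate 1, 2 or 3 (edgeR adjusted p = 0.0564, 0.0888 and 0.0512) and without the filter on low counts (adjusted p = 0.118), while the log2 fold change was 1.83 or more in each of 16 alternative fits.

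**Figure D1:**
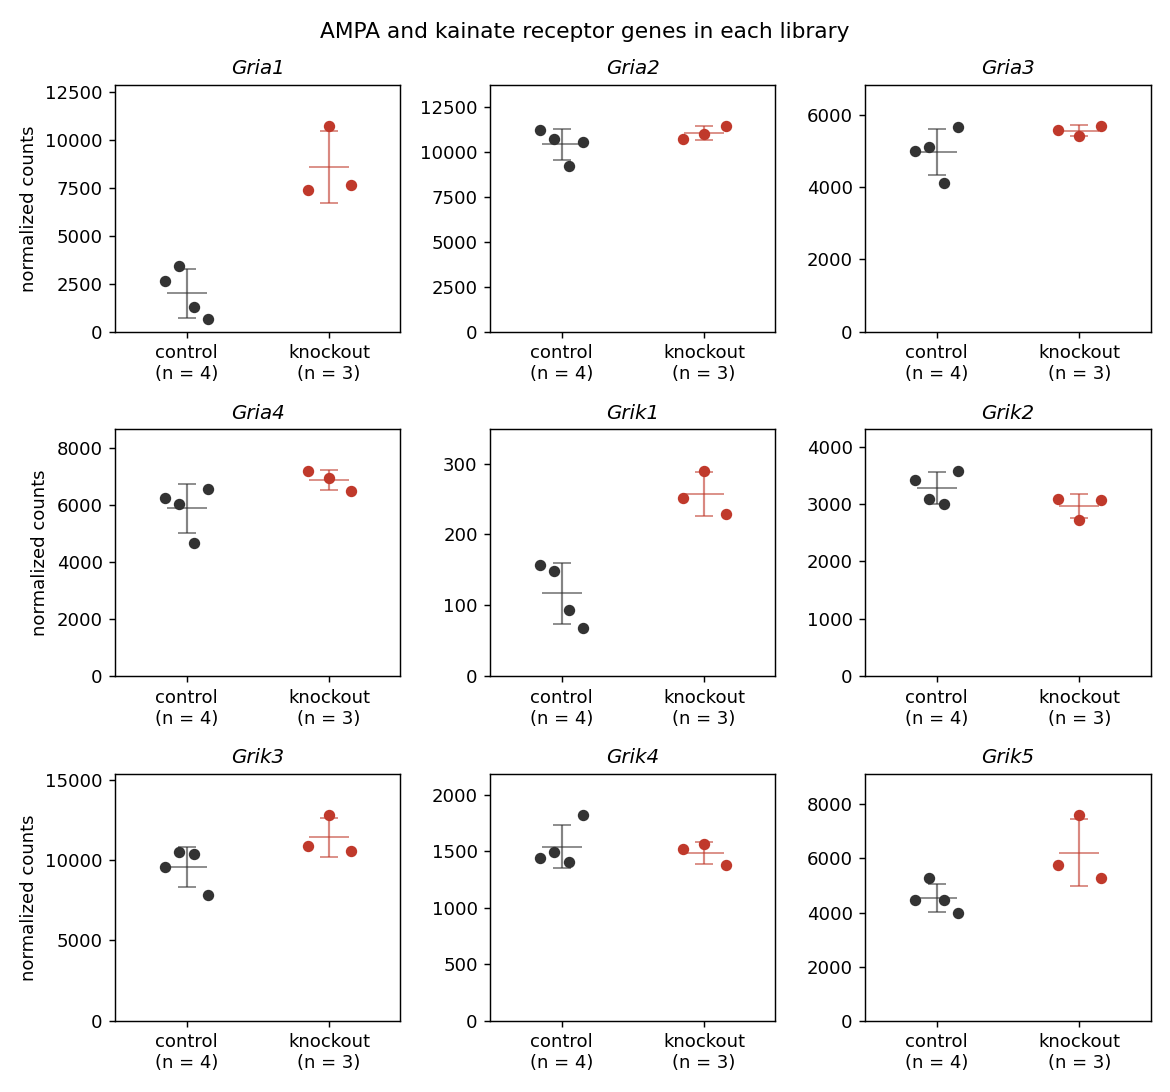
Normalized counts of the 9 receptor genes in each library, with 4 control libraries in black and 3 knockout libraries in red; points are libraries, and bars give the mean and the SD. Gria1 and Grik1 show all knockout libraries well above the controls, whereas the other genes lie close together or overlap.

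The other AMPA subunit genes did not pass the test. Gria2, on chromosome 3 from 80681450 to 80802835, codes for the subunit that limits calcium entry. It gave 11219, 10748, 9222 and 10564 normalized counts across control replicates 1 to 4, against 10710, 11005 and 11455 across the knockouts. The groups overlapped, and the 95% confidence interval of the log2 fold change of 0.08 ran from -0.09 to 0.26 (edgeR adjusted p = 0.479). Gria3, on chromosome X from 41400854 to 41678601, gave 5000, 5121, 4129 and 5656 normalized counts across control replicates 1 to 4, against 5595, 5407 and 5695 across the knockouts. Gria4, on chromosome 9 from 4417896 to 4796234, gave 6273, 6061, 4660 and 6583 across the controls, against 7222, 6948 and 6514 across the knockouts. In all of these genes control replicate 3 was the lowest library. The log2 fold changes were 0.16 for Gria3 and 0.23 for Gria4, with 95% confidence intervals from -0.07 to 0.40 and from -0.05 to 0.50 (edgeR adjusted p = 0.297 and 0.209). A 2-fold change, 1 on the log2 scale, lies outside the interval of each of Gria2, Gria3 and Gria4.

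Grik1 (ENSMUSG00000022935), on chromosome 16 from 87895901 to 88290258, codes for GluK1 and was the rarest receptor gene. It gave 157, 148, 93.7 and 68.3 normalized counts across control replicates 1 to 4, against 251, 290 and 228 across the knockouts. As for Gria1, control replicates 3 and 4 were the lowest libraries and knockout replicate 2 was the highest. The mean rose 2.21-fold from 117 ± 42.5 (SD, n = 4) to 257 ± 31.2 (SD, n = 3), with a log2 fold change of 1.14 (SE 0.29, 95% confidence interval 0.47 to 1.82, edgeR adjusted p = 0.0280). The edgeR adjusted p was 0.0534 without control replicate 3 and 0.0679, 0.0962 and 0.0507 without knockout replicates 1, 2 and 3 in turn. The log2 fold change stayed between 0.97 and 1.33.

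Among the other subunits that form kainate channels on their own, Grik3 was the most abundant. Grik3, on chromosome 4 from 125490700 to 125714173, gave 9532, 10518, 10389 and 7793 normalized counts across control replicates 1 to 4, against 10885, 12791 and 10559 across the knockouts. Although the groups did not overlap, the lowest knockout library stood only just above the highest control, and the log2 fold change of 0.26 (95% confidence interval -0.02 to 0.53) did not pass the test (edgeR adjusted p = 0.168). Grik2, on chromosome 10 from 49099843 to 49783259, gave 3425, 3086, 2999 and 3583 normalized counts across control replicates 1 to 4, against 3089, 2725 and 3074 across the knockouts. It was the receptor gene with the lowest log2 fold change, -0.14, with a 95% confidence interval from -0.34 to 0.05 (edgeR adjusted p = 0.256).

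Neither of the high-affinity kainate subunit genes passed the test. Grik5, on chromosome 7 from 25009849 to 25072346, gave 4452, 5268, 4452 and 3995 normalized counts across control replicates 1 to 4, against 5756, 7607 and 5260 across the knockouts. The highest control exceeded the lowest knockout by a few counts. Its log2 fold change of 0.45 (SE 0.14, 95% confidence interval 0.12 to 0.78) missed the threshold at an edgeR adjusted p of 0.0568. With the replicate number as a block the adjusted p of edgeR was 0.0230, with a log2 fold change of 0.38, and DESeq2's Wald test gave 0.0275. Without control replicate 2 or knockout replicate 3 it passed as well (edgeR adjusted p = 0.0430 and 0.0379), but it passed in only 5 of 14 alternative fits. It did not pass in limma voom (adjusted p = 0.0602), without the filter on low counts (edgeR adjusted p = 0.1005) or without knockout replicate 2, where the log2 fold change was 0.28 (edgeR adjusted p = 0.157). Grik4, on chromosome 9 from 42518135 to 42944493, gave 1441, 1495, 1404 and 1822 normalized counts across control replicates 1 to 4, against 1524, 1562 and 1379 across the knockouts. Knockout replicate 3 was the lowest library and control replicate 4 the highest, and the groups overlapped. The log2 fold change of -0.05 had a 95% confidence interval from -0.29 to 0.19 and turned to 0.039 with the replicate block.

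To compare levels between genes, normalized counts were divided by the summed length of the annotated exons in kilobases. This length covers all isoforms and can understate genes with rarely used exons; it was greatest for Gria2 with 15548 bases. In the controls Grik3 was highest with 1065 ± 140 normalized counts per kilobase (SD, n = 4), followed by Gria4 with 935 ± 135, Grik5 with 879 ± 103 and Grik2 with 810 ± 68.4. Neighbours among these 4 overlapped in their ranges. Gria2 with 671 ± 55.1 and Gria3 with 505 ± 64.2 came next and stood apart from each other and from Grik2. Gria1 followed at rank 7 with 332 ± 211, overlapping both Gria3 and Grik4 (258 ± 32.2), and Grik1 was far below the rest with 18.9 ± 6.88.

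In the knockouts Gria1 stood at rank 1 with 1423 ± 308 normalized counts per kilobase (SD, n = 3). It was the highest of the 9 genes in each knockout library, whereas in the control libraries it held ranks 6 to 8. Its range still overlapped that of Grik3 at 1272 ± 134, which in turn overlapped that of Grik5 at 1201 ± 239. The other genes kept their order relative to each other except that Grik5 stood above Gria4, and Grik1 was again the lowest at 41.5 ± 5.04. The summed level of the 4 AMPA subunits was 1961 to 2740 normalized counts per kilobase in the controls and 3612 to 4136 in the knockouts, without overlap. Without Gria1 it was 1751 to 2297 and 2348 to 2402. The 5 kainate subunits summed to 2845 to 3230 in the controls and 3224 to 3881 in the knockouts, so that the groups just overlapped.

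The make-up of the AMPA family shifted accordingly. In the controls Gria1 took 16.6%, 20.7%, 10.7% and 4.41% of the summed counts per kilobase of the family, and in the knockouts 33.8%, 43.0% and 35.0%. The share of Gria2 was 25.2% to 30.2% in the controls and 17.1% to 20.4% in the knockouts, although its own level did not pass the test for a change. Gria4 had the largest share in the controls, 38.4% ± 3.57 (SD, n = 4), and 28.9% ± 2.49 in the knockouts (SD, n = 3). Among kainate subunits Grik5 took 28.9% ± 1.87 in the controls and 34.1% ± 3.36 in the knockouts, Grik2 26.8% ± 3.41 and 21.2% ± 3.33, and Grik3 35.1% ± 3.34 and 36.3% ± 0.480. Grik1 did not exceed 1.21% in any library. These shares are descriptions, and no test was made of them.

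**Figure D2:**
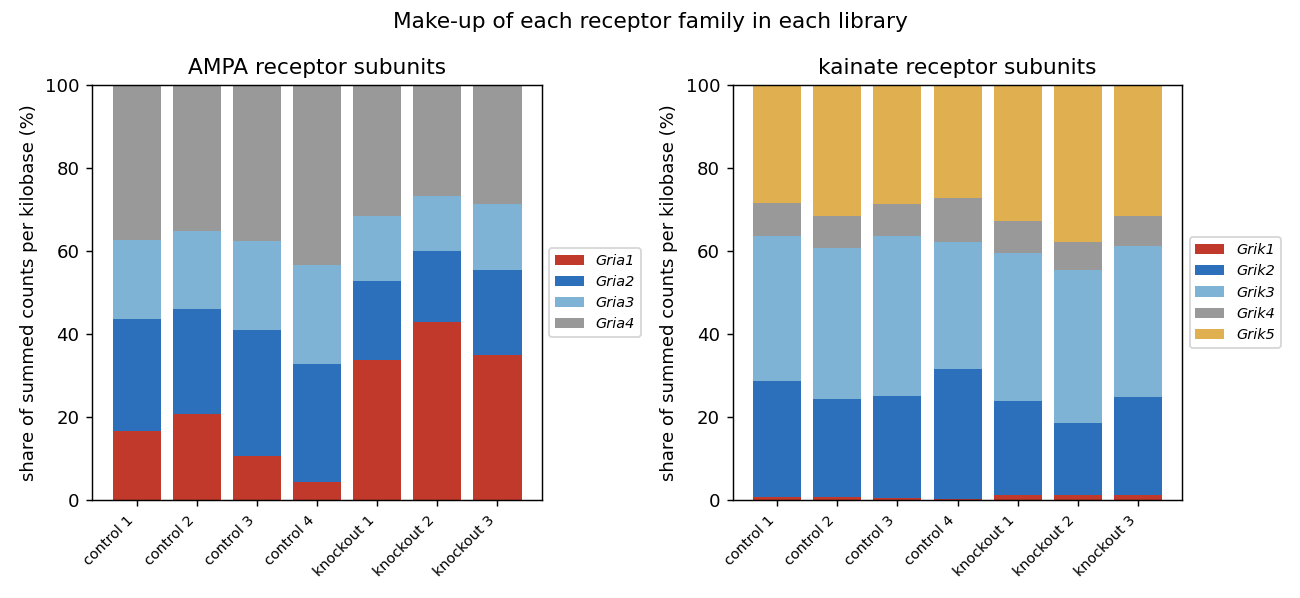
Share of each subunit gene in the summed normalized counts per kilobase of its family, in percent, for the 4 control and 3 knockout libraries (stacked bars add up to 100%). Gria1 takes 4.41% to 20.7% of the AMPA family in the controls and 33.8% to 43.0% in the knockouts, while the share of Grik3 overlaps between the groups.

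The pathway was followed through 37 further genes in 5 lists, all of which were tested. Of these genes 13 rose, 5 fell and 19 did not pass the test, with a median log2 fold change of 0.16. Among all tested genes 11.6% rose and 12.2% fell, so that the number of pathway genes that fell was near the background. DESeq2's Wald test called 14 higher and 5 lower. The number that rose depended on single libraries, as it was 4 without knockout replicate 1, 4 without knockout replicate 2, 7 without control replicate 3 and 7 without control replicate 4, and on the filter, as it was 5 without one.

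Auxiliary subunits of the AMPA receptor travel with the channel and tune its gating and its delivery to the membrane. In this list of 13 genes 5 rose, 1 fell and 7 did not pass, beside 11.6% higher and 12.2% lower among all tested genes, and the median log2 fold change was 0.90. Cacng2, which codes for the prototype of the transmembrane AMPA receptor regulatory proteins, stargazin, gave 248, 339, 114 and 70.2 normalized counts across control replicates 1 to 4, against 708, 1081 and 674 across the knockouts. As for Gria1, control replicates 3 and 4 were the lowest libraries and knockout replicate 2 the highest. The log2 fold change reached 2.09 (SE 0.50, edgeR adjusted p = 0.0242), with adjusted p of 0.0536 and 0.0887 without knockout replicates 1 and 2 and of 0.0982 without the filter on low counts.

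The relatives Cacng8 and Cacng5 rose by 0.91 each on the log2 scale (edgeR adjusted p = 0.0390 and 0.0101). Cacng4, the auxiliary gene with the highest level over all libraries, rose by 0.44 (edgeR adjusted p = 0.0232), from 3190 to 4321 normalized counts per kilobase. Shisa9, for a protein that modulates short-term plasticity of AMPA currents, gave 1492, 1515, 1320 and 743 normalized counts across control replicates 1 to 4, against 2089, 2778 and 2219 across the knockouts, a log2 fold change of 0.90 (edgeR adjusted p = 0.0345). In the opposite direction, Cnih3, for a cornichon protein that slows AMPA receptor closure, gave 347, 480, 370 and 282 normalized counts across control replicates 1 to 4, against 175, 221 and 161 across the knockouts, a log2 fold change of -0.99 (SE 0.21, edgeR adjusted p = 0.0143). Its closest relative in the list, Cnih2, had a log2 fold change of 0.97 that missed the threshold (edgeR adjusted p = 0.0696) and passed with the replicate block. Cnih2 was singled out after its values were seen. With 1 library left out, Cacng5 passed in 7 of 7 fits, Cacng4 was lost without knockout replicate 1 or 2 (edgeR adjusted p = 0.0587 and 0.0869) and Cnih3 without knockout replicate 1 (0.0528). Shisa9 was lost without control replicate 3 or any knockout library (up to 0.120), and Cacng8 held only without control replicate 2 or knockout replicate 3 (up to 0.130 otherwise).

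Proteins of assembly and anchoring take the receptor from the endoplasmic reticulum to the synapse. Of 14 such genes 5 rose, 3 fell and 6 did not pass, against the same background of 11.6% and 12.2%, and the median log2 fold change was 0.05. Grip1, for a scaffold that binds the tails of GluA2 and GluA3, had the highest log2 fold change and held its call in each of the 7 leave-one-out fits. It gave 1007, 1170, 714 and 459 normalized counts across control replicates 1 to 4, against 2482, 3044 and 2455 across the knockouts, a log2 fold change of 1.67 (SE 0.29, edgeR adjusted p = 0.00801). Frrs1l, which acts in early assembly of the receptor, rose by 0.90 on the log2 scale (edgeR adjusted p = 0.00637). Grip2 and the kinase anchor gene Akap5 rose by 1.66 and 1.15, and each passed in 1 of 7 leave-one-out fits. Dlg4, singled out after its values were seen, for the postsynaptic scaffold PSD95, rose by 0.61 although its groups overlapped (edgeR adjusted p = 0.0404). Abhd12, the gene of this list with the highest level, had a log2 fold change of -0.31 (edgeR adjusted p = 0.216), which was -0.15 without control replicate 3, its highest library.

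The 3 genes of the anchoring list that fell showed no overlap between the groups, as did 36.2% of all tested genes. Dlg1, for the scaffold SAP97 that binds GluA1, gave 9219, 9650, 9704 and 10377 normalized counts across control replicates 1 to 4, against 5442, 4761 and 5263 across the knockouts. With a log2 fold change of -0.92 (SE 0.07, edgeR adjusted p = 0.000214) it was the pathway gene with the smallest p. Epb41l1, for the GluA1 binding protein 4.1N, and Sacm1l, for a phosphoinositide phosphatase, had log2 fold changes of -0.45 and -0.37 (edgeR adjusted p = 0.00485 and 0.00582).

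Kainate receptors have auxiliary subunits of their own, NETO1 and NETO2. Neto2 was the most abundant gene of this list and had 9621 to 12344 normalized counts in the controls and 10608 to 11764 in the knockouts, with a log2 fold change of -0.04 (95% confidence interval -0.25 to 0.18). Of the 5 genes in the list 1 rose and none fell (0 at an unadjusted p below 0.05), beside 11.6% higher and 12.2% lower among all tested genes. The gene that rose was Klhl24, for a protein that binds GluK2, with a log2 fold change of 0.23 (edgeR adjusted p = 0.0438, 0.0691 with the replicate block and above 0.05 in each of the 7 leave-one-out fits).

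Of the 3 genes for RNA editing enzymes 2 rose, beside 11.6% of all tested genes, and none fell (0 at an unadjusted p below 0.05 in edgeR), beside 12.2%. Adarb1, for ADAR2, the deaminase that edits the Q/R codon of Gria2 and in part that of Grik1 and Grik2, gave 919, 931, 969 and 866 normalized counts across control replicates 1 to 4, against 1255, 1545 and 1233 across the knockouts. The controls lay close together and below each knockout, and the log2 fold change was 0.55 (SE 0.09, edgeR adjusted p = 0.00757), with adjusted p of 0.0230 or less in 14 alternative fits, the fits within ribosomal share classes left aside. Adarb2, for a related protein without known editing activity, rose by 1.19 on the log2 scale (edgeR adjusted p = 0.0229). Adar, the most abundant of the list, had a log2 fold change of 0.20 (edgeR adjusted p = 0.133). Grid1, for a subunit of the related delta receptors, had a log2 fold change of 0.07 (edgeR adjusted p = 0.602). The call of Adarb2 was lost without control replicate 4, knockout replicate 1 or knockout replicate 2 (edgeR adjusted p up to 0.0814).

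**Figure D3:**
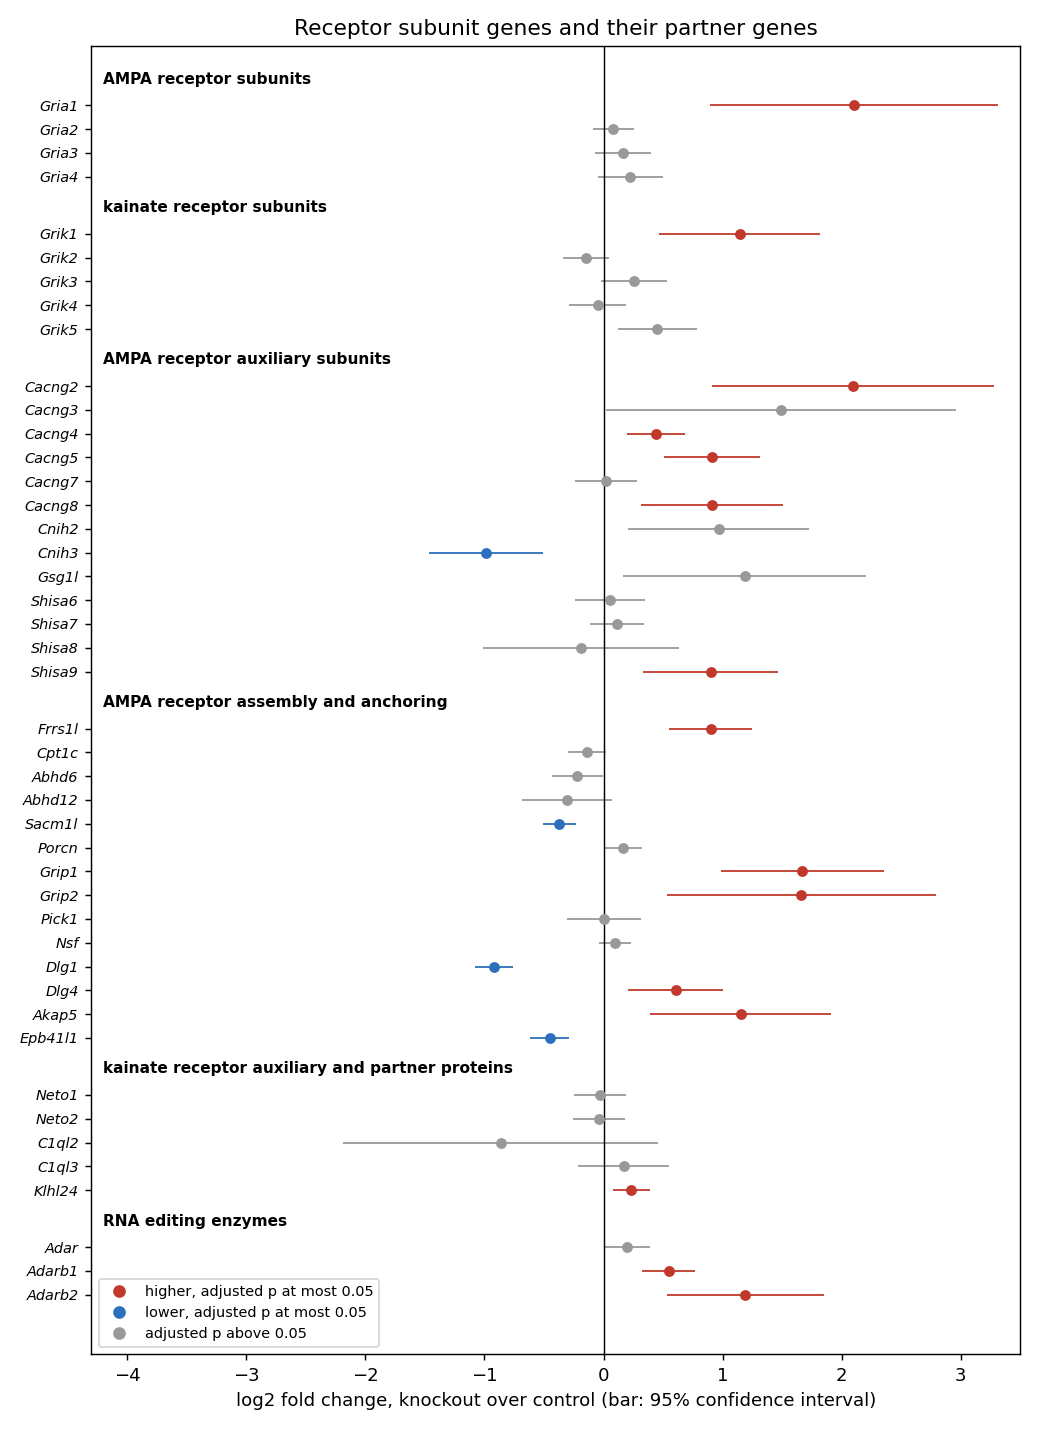
Log2 fold change of Klf13 knockout over control for the 9 subunit genes and the other genes of the pathway except the delta receptor list, with 95% confidence intervals from edgeR's quasi-likelihood fit. Genes at an adjusted p of at most 0.05 are red when higher and blue when lower. Gria1 and Cacng2 lie furthest to the right with log2 fold changes of 2.10 and 2.09, and Cnih3 and Dlg1 furthest to the left among the genes that passed, with -0.99 and -0.92.

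Receptor subunits are shared by several neural cell types, and markers of such cells moved with Gria1 and Grik1. In these bulk libraries fewer cells of a type and less RNA per cell cannot be told apart. Of 12 neuron markers 11 were tested, 7 rose and none fell (0 at an unadjusted p below 0.05), beside 11.6% higher and 12.2% lower among all tested genes. Their summed level was 797, 1034, 611 and 409 normalized counts per kilobase over the 4 controls, against 1685, 2598 and 1587 over the knockouts. The controls had the same order in this sum as in Gria1, and knockout replicate 2 was the highest library in both. Slc32a1, the vesicular GABA transporter gene, was, with Syp, among the markers with the highest level, and had 98.3 to 568 normalized counts in the controls and 928 to 1987 in the knockouts. Slc17a7, the marker of cortical glutamatergic neurons, had at most 13 raw counts in a library and was at 0 in knockout replicate 1. Slc17a6, also a marker of glutamatergic neurons, rose from a mean of 9.91 to 26.4 normalized counts (log2 fold change 1.35, edgeR adjusted p = 0.0395). Nefm and Nefl had log2 fold changes of -0.73 and -0.45 and did not pass (edgeR adjusted p = 0.203 and 0.294). Slc17a7, Slc17a6, Nefm and Nefl were singled out after their values were seen.

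Relative to the summed neuron markers, Gria1 per kilobase was at 55.5%, 55.0%, 34.4% and 25.9% in the controls and at 72.7%, 68.5% and 79.7% in the knockouts, without overlap. For Grik1 the same ratio was 3.18%, 2.31%, 2.48% and 2.71% in the controls, against 2.41%, 1.81% and 2.33% in the knockouts, so that the groups overlapped and the knockouts were not higher. Against the same background, 9 of 10 astrocyte markers rose and none fell (0 at an unadjusted p below 0.05), and their sum was 22168 to 30611 normalized counts per kilobase in the controls and 43557 to 51573 in the knockouts. Relative to this sum, Gria1 was at 0.478% to 1.86% in the controls and at 2.81% to 3.45% in the knockouts, without overlap. Grik1 was at 0.0886%, 0.0781%, 0.0524% and 0.0499% of it in the controls, against 0.0932%, 0.0910% and 0.0837% in the knockouts, so that the groups overlapped although the knockout mean was higher. Of 8 OPC markers 2 rose and none fell, beside 11.6% higher and 12.2% lower among all tested genes. In this list 6 log2 fold changes were positive and 2 were negative. The OPC markers summed to 11077 to 12862 in the controls and 12786 to 14055 in the knockouts. The 12 mature oligodendrocyte markers summed to 221859 to 242063 in the controls and 67109 to 78575 in the knockouts. The part of these cell types in the changes of Gria1 and Grik1 was not tested.

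**Figure D4:**
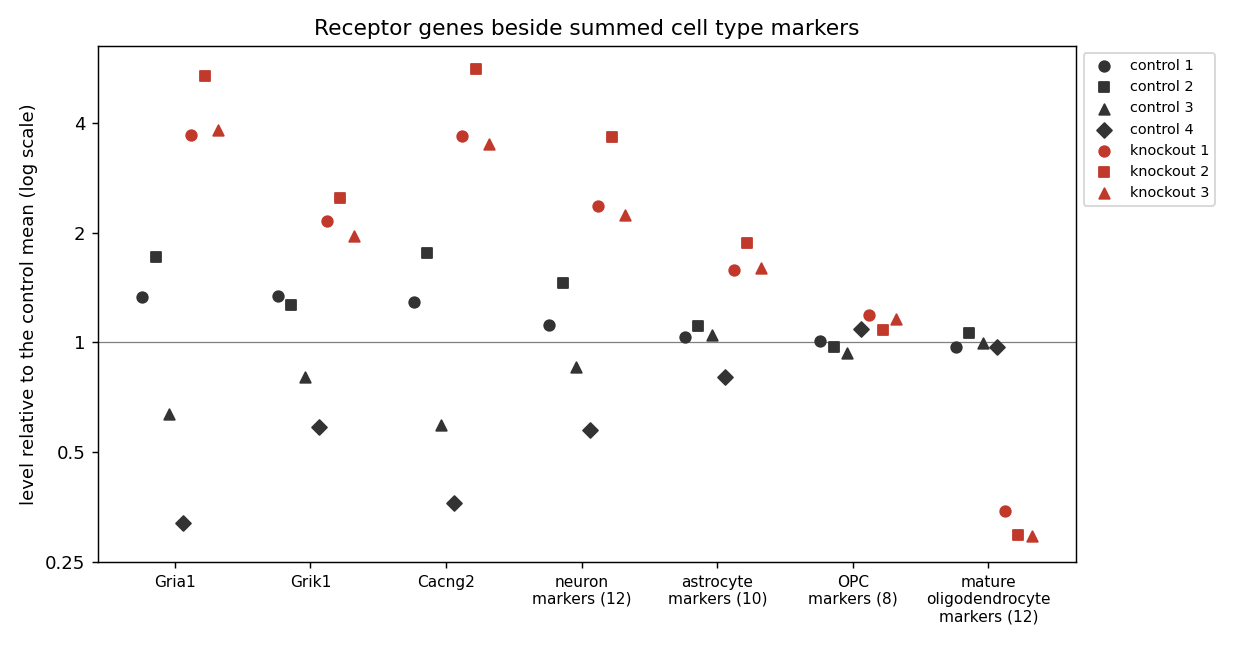
Level in each library relative to the mean of the 4 controls, on a log scale, for Gria1, Grik1 and Cacng2 (normalized counts) and for 4 lists of cell type markers (summed normalized counts per kilobase, number of genes in brackets). Black symbols are control libraries and red symbols knockout libraries, and the symbol gives the replicate. Control replicates 3 and 4 are the lowest for Gria1, Cacng2 and the neuron markers alike.

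The other marker lists did not move in the same way. None of 7 microglia genes passed the test in edgeR (0 at an unadjusted p below 0.05), with log2 fold changes from -0.90 to -0.29, and the library with the highest microglia sum, control replicate 3, was the lowest library for Gria2, Gria3 and Gria4. Without it, their log2 fold changes were 0.03, 0.08 and 0.13. Of 8 fibroblast and mural cell genes 1 fell, near the 12.2% of all tested genes that fell, but 7 had a negative log2 fold change, 5 were lower at an unadjusted p below 0.05 in edgeR, and the median was -2.07. Their sums were 3767 to 10636 normalized counts per kilobase in the controls and 1984 to 3819 in the knockouts. Of 4 endothelial genes 3 were tested and 1 fell, against the same 12.2%, and Cldn5 had at most 1 raw count in a library.

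The libraries with a ribosomal RNA share above 10%, 2 per group, gave log2 fold changes of 2.17 for Gria1 and 1.08 for Grik1. The libraries below it, 2 controls and 1 knockout, gave 2.18 and 1.25. None of the 9 receptor genes passed the test within either class, in which the number of libraries is small. The strand setting of the counting is not given in the sources used here. No annotated exon of a gene on the opposite strand lies within a receptor gene, and small RNA genes inside exons of Gria2, Gria3 and Grik4 had 0 counts in all libraries, while Gm23811, which shares 19 exon bases with Gria4, had 1 to 10 counts per library.

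Gria4 and Grik3 had the highest mean level per kilobase of their families over all 7 libraries, although Gria1 was above Gria4 in the knockouts. The genes most like these subunit genes were named by Pearson's correlation of log2 CPM (prior count of 2) over the 7 libraries, among 18351 other genes. For Gria4 they were Dach2 (r = 0.998), Mmd2 (0.989) and Flvcr2 (0.988), and for Grik3 they were Car10 (0.990), Zfp341 (0.989) and Rtn4r (0.987). All points share the same libraries and include both genotypes, so that these values describe likeness in this data set only.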

How the data were processed

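Primary mouse oligodendroglia of 4 wildtype controls and 3 Klf13 knockouts were sequenced as paired reads after 6 days of differentiation. The authors trimmed reads with Trimmomatic 0.36, mapped them with STAR 2.5.2b to GRCm38 and deposited raw counts of unique exon hits per gene, made with featureCounts of Subread 1.5.2. The annotation release and strand setting are not given in the sources used here. Symbols were found for 48970 of 49315 identifiers, and 44858 identifiers, 7 of the 9 receptor genes among them, have the same start and end in GENCODE M21.

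From these counts, genes were filtered by filterByExpr, scaled by TMM and fitted with edgeR 4.0.16 (R 4.3.3) by robust quasi-likelihood with genotype as the only term, on the whole table. To obtain normalized counts, each count was set relative to its library's TMM-scaled size and brought to the mean size. The fit was tested on simulated data for this comparison (18352 genes, with 50 changed by each of 4 log2 fold changes). It called 77.1% of the tested genes at -2, 48.9% at -1, 54% at 1, 92% at 2 and 0.0337% of unchanged genes. In the data a larger part of the tested genes was called, 23.8%, so these shares need not hold for the real comparison. A first limit of 80% for changes of 2 log2 units was not met at -2 and was lowered to 50% after this was seen, so that a gene that did not pass may still have changed. Alternatives were DESeq2 1.42.0 (the tool of the study), limma 3.58.1 voom, DESeq2 size factors, no filter, at least 10 counts in every library, library sizes without ribosomal RNA genes, the replicate number as a block and each library left out. Fits within ribosomal share classes were added after the data were seen. Deviations from group means correlated at 0.11, 0.46 and 0.17 between control and knockout libraries of the same replicate number (18352 genes, which are not independent replicates). Libraries of different number reached 0.20, above 0.11 and 0.17, so the pairing is weakly marked. The main fit did not use pairs, and only the alternative fit with the replicate block did. This block was tried because each same-number value was above 0.1, but some values of different number were above 0.1 as well. No source says what libraries of the same number share. P-values set the difference between the groups against the spread between these libraries.

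The receptor genes and all lists were chosen with earlier results of these data known. Named genes are the receptor genes, Klf13, the most abundant gene of each pathway list, up to 4 genes per list and direction with the largest changes that passed, the 2 most abundant genes of each marker list, genes with exons inside a receptor gene and the 3 genes most like the leading subunit of each family. A count of 0 allows up to 3 counts. Some genes that this rule names are not reported here.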

Additional observations from a re-analysis of the deposited data

Results flagged for a closer look

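Among 68 values checked for a control library far from the other 3 by Dixon's test at the 95% level, 6 stood apart, and chance alone gives about 1 in 20. The share of Grik4 in the kainate family was 10.7% in control replicate 4 against 7.76% to 7.95% in the other controls. In control replicate 3, Cx3cr1 had 15287 normalized counts against 2839 to 3567, Cd68 had 7921 against 2128 to 2946, and the summed microglia markers reached 14374 normalized counts per kilobase. Aldoc, an astrocyte marker, was low in the same library at 11106 normalized counts against 15938 to 16769. Lhfpl3, an OPC marker, was high in control replicate 4 at 11825 against 8337 to 8741.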

How the results depend on the processing

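Gria1 and Grik1 kept a positive log2 fold change in all 16 alternative fits, and their adjusted p from edgeR, DESeq2 or limma was at most 0.05 in 10 of the 14 that left the ribosomal share aside, for each gene. Without the filter on low counts 1 receptor gene and 5 pathway genes rose. With 1 library left out, 0 to 3 receptor genes, 4 to 12 pathway genes and 850 to 1843 of all genes rose, and 3 to 7 pathway genes and 1254 to 2032 of all genes fell. With the fold threshold, 335 to 810 of all genes rose, fewest without knockout replicate 2. Within the libraries with a ribosomal share above 10%, 0 receptor genes rose, 2 pathway genes rose and 3 fell, and 650 of all genes rose and 1025 fell, of which 258 and 342 passed the fold threshold. Below that share, with 1 knockout library, edgeR called 0 genes in either direction, and Klf13 had a log2 fold change of -3.78 (adjusted p = 0.270). The sign turned for genes close to 0: Grik4 had a log2 fold change of 0.039 with the replicate block, 0.092 below a ribosomal share of 10% and -0.094 to 0.062 with 1 library left out, Neto2 had 0.0093 with the replicate block and -0.11 to 0.025 with 1 library left out, and Grid1 had -0.074 above a ribosomal share of 10%. The replicate block left 1741 genes higher and 2042 lower and changed the calls of Grik5 and Klhl24 among the genes named by rule, and of Cnih2 and Gsg1l. The difference in the share of Gria4, knockout minus control, was -9.44 percentage points for shares of the summed counts per kilobase. For shares of counts not divided by length it was -3.76 percentage points. The cause of these shifts was not tested. With 68.3 normalized counts in its lowest library, Grik1 carries the widest counting error of the receptor genes.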
